A study of Homo sapiens with 6 samples.

Results

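The expression of DNA repair genes was measured in a pair of sublines, PC-3/Mc and PC-3/S. Both descend from PC-3, a widely used human prostate carcinoma line first grown from a metastasis to bone. The list named 46 genes of homologous recombination, the Fanconi anemia pathway, mismatch repair, end joining and excision repair, with the damage checkpoint kinases and the reversal enzyme MGMT. Members were the probe sets that the array's annotation assigns to 1 of these symbols alone: 92 of the 41091 probe sets with a single symbol, standing for 41 of the 19775 genes. BRCA2, RBBP8, FANCA, FANCD2 and PMS2 were not analysed here. Each line was measured on 3 one-colour Affymetrix arrays of total RNA, from cells harvested before confluence. No treatment, genotype or time point is given for either line, and the labels do not say how the sublines were derived or whether each is a clone. The labels call the arrays of a line biological replicates, without saying what separated them, such as culture or passage. The p-values set the difference between the lines against the spread between these arrays, and do not reach beyond this pair of sublines.

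DNA repair is divided by the kind of lesion. Homologous recombination copies a broken duplex from the sister chromatid in S and G2 phase, and the Fanconi anemia pathway unhooks strands that are cross-linked to each other and hands the break to recombination. Mismatch repair corrects replication errors, end joining reseals breaks without a template, base excision and nucleotide excision repair cut out single damaged bases or bulky lesions, and the kinases ATM and ATR signal damage to the cell cycle through CHEK2 and CHEK1.

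Values are log2 expression as the authors deposited them, and each gene is given by its brightest probe set, judged over the 6 arrays together. A difference is PC-3/Mc less PC-3/S, in log2 units, with its standard error. Where values are joined by "against", those of PC-3/Mc come first. Adjusted p-values come from limma with Benjamini-Hochberg adjustment over the 19775 genes. A gene counts as called higher or lower at an adjusted p under 0.05. Means are given ± SD over n = 3 arrays of a line. Since probe sets differ in affinity, the level of a gene is compared only with the same gene in the other line.

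The 6 arrays had medians of 4.98 to 5.09, and correlated at 0.995 to 0.997 within a line and 0.949 to 0.953 between lines. The epithelial keratins KRT18 (12.48 in PC-3/Mc, 11.32 in PC-3/S) and KRT8 (9.81 and 8.78) were higher in PC-3/Mc and KRT19 (11.28 and 11.76) was lower. The epithelial adhesion gene EPCAM read 11.88 and 6.44, and E-cadherin (CDH1) read 7.67 in the first and 4.0 in the second. PC-3 cells lack CTNNA1, whose brightest array read 5.18. That value serves below as a rough floor, chosen after it was seen. The 4 leukocyte markers measured (PTPRC, CD3E, CD14, MS4A1) averaged under this floor in both lines, as did 3 of 5 endothelial markers. The other endothelial markers, PECAM1 (7.18 and 6.58) and KDR (4.06 and 6.23), were called in opposite directions. Of 6 fibroblast markers, LUM (6.04 and 4.23) and PDGFRB (5.08 and 4.73) were called higher, DCN (4.89 and 5.33) lower and 3 neither way. The part of these markers in the results below was not tested.

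Repair genes were mostly higher in PC-3/Mc. Of the 41 measured, 23 were called higher (56.1%), 4 lower (9.76%) and 14 neither way. Over all genes 23.2% were called higher and 22.7% lower. The probe sets of 39 of the 41 genes read at or above the median gene's 5.98, which does not rank transcript abundance. Calls are more frequent at brighter probe sets, and among the 9888 genes at or above that value 38.9% were called higher and 31.3% lower. The median difference of the repair genes was 0.48, against -0.03 over all genes and 0.05 over genes at or above the median level. All 3 PC-3/Mc arrays lay above all 3 PC-3/S arrays for 26 repair genes and below them for 5, where the shares over all genes were 26.3% and 26.8%. Most shifts were under 2-fold: 6 genes were called higher by at least 2-fold and 1 lower, against 5.88% and 5.58% of all genes.

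**Figure D1:**
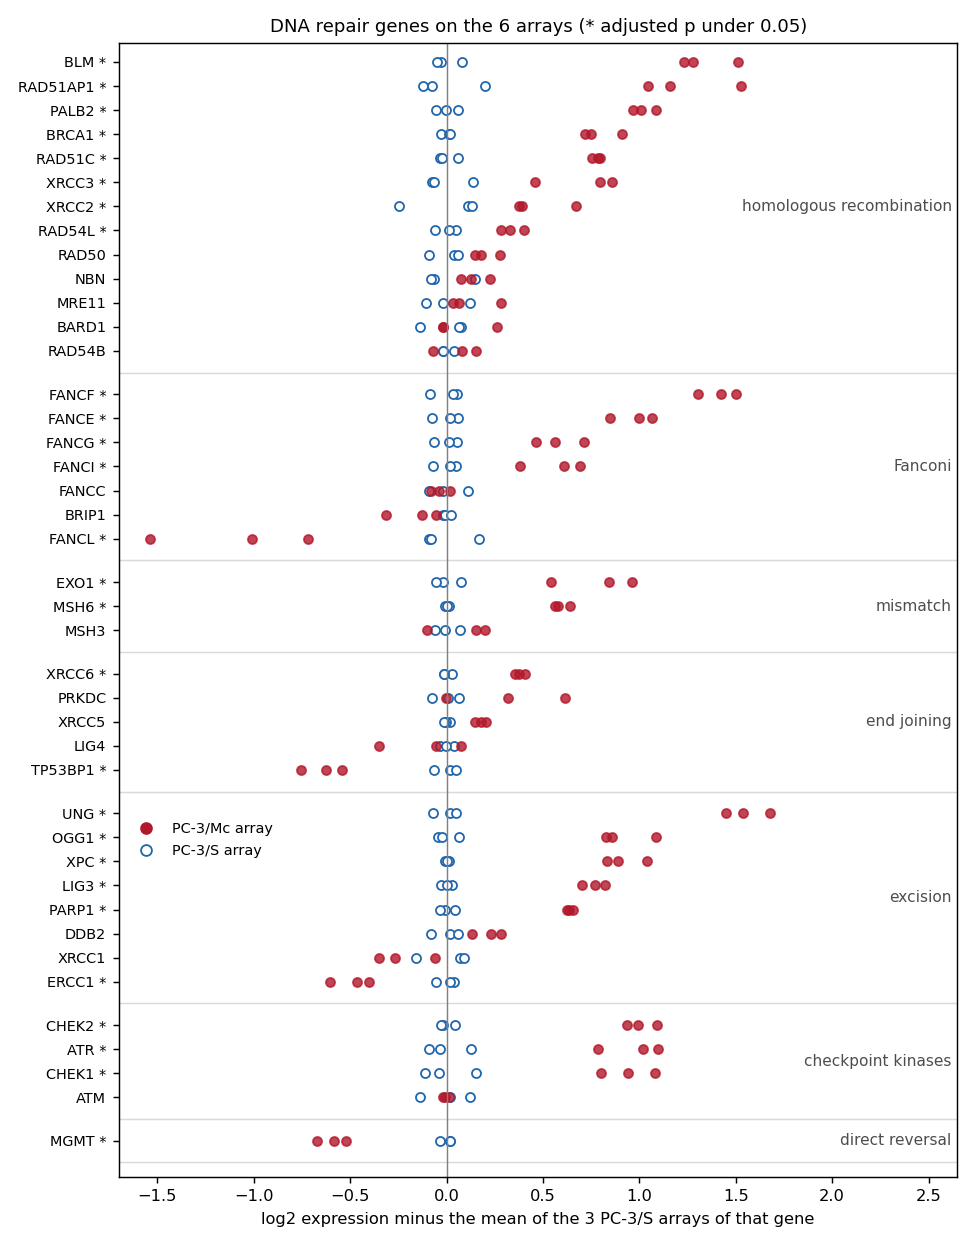
Log2 expression of the 41 repair genes on each array, relative to the mean of the 3 PC-3/S arrays of the same gene (red, PC-3/Mc arrays; open blue, PC-3/S arrays; an asterisk marks an adjusted p under 0.05). Red points lie right of the blue ones for most genes, and left of them for FANCL, BRIP1, TP53BP1, ERCC1 and MGMT.

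The largest increase was that of UNG, the uracil-DNA glycosylase that starts base excision. It read 10.10, 10.24 and 10.01 on the PC-3/Mc arrays and 8.58, 8.49 and 8.61 on the PC-3/S arrays, a 2.94-fold difference (1.56 ± 0.09, adjusted p = 9.6e-08). FANCF, an adaptor of the Fanconi core complex, read 7.45, 7.25 and 7.37 against 6.0, 5.86 and 5.98 (1.41 ± 0.08, adjusted p = 2.0e-07). BLM, the helicase mutated in Bloom syndrome, read 8.09, 7.86 and 7.81 against 6.55, 6.53 and 6.66 (1.34 ± 0.09, adjusted p = 5.8e-07). For these 3 genes the gap between the lines was many times the spread within a line. RAD51AP1, which stimulates strand exchange, was more variable at 8.46, 8.83 and 8.35 against 7.18, 7.23 and 7.5 (1.24 ± 0.13, adjusted p = 1.5e-05), without overlap.

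The 4 genes lower in PC-3/Mc each belong to a different pathway. FANCL, the ubiquitin ligase of the Fanconi core complex, read 7.43, 7.72 and 6.90 against 8.35, 8.36 and 8.61 (-1.09 ± 0.18, adjusted p = 3.7e-04). Its PC-3/Mc arrays were spread over more than those of any other repair gene (SD 0.42), yet all were under PC-3/S. TP53BP1 encodes a chromatin reader that shields broken ends from resection and favours end joining, and read 9.05, 8.84 and 8.97 against 9.61, 9.64 and 9.53 (-0.64 ± 0.08, adjusted p = 7.5e-05). MGMT, which lifts alkyl groups from guanine, read 7.42, 7.27 and 7.36 against 7.91, 7.96 and 7.96 (-0.59 ± 0.08, adjusted p = 7.4e-05). ERCC1, the partner of the nuclease XPF in nucleotide excision, read 8.28, 8.14 and 8.34 against 8.78, 8.69 and 8.76 (-0.49 ± 0.08, adjusted p = 5.4e-04).

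The promoters of these 8 genes, the 4 called genes that differed most in either direction and have a promoter entry, are shown because most repair genes share a promoter type without a TATA box and differ in their CCAAT and GC boxes. Each is the 250 bases before the RefSeq start site of assembly GRCh38.p14, read 5′ to 3′ on the gene's strand; where RefSeq lists several starts, the lowest coordinate was taken. Capitals mark matches on either strand. The letters CCAAT stand for the CCAAT box. For the GC box the letters are GGGCGG. The E2F motif was searched as TTTNNCGC, and motifs were allowed to overlap. The positions are chr12:109097347-109097596 on the plus strand for UNG, chr11:22625824-22626073 on the minus strand for FANCF, chr15:90717096-90717345 on the plus strand for BLM, chr12:4538640-4538889 on the plus strand for RAD51AP1, chr2:58241326-58241575 on the minus strand for FANCL, chr15:43510641-43510890 on the minus strand for TP53BP1, chr10:129466991-129467240 on the plus strand for MGMT and chr19:45423529-45423778 on the minus strand for ERCC1.
UNG: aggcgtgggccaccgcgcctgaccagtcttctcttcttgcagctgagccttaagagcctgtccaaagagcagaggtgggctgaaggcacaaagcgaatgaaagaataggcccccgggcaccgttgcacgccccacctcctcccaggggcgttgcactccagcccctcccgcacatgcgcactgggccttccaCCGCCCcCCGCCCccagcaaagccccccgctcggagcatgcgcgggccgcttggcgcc
FANCF: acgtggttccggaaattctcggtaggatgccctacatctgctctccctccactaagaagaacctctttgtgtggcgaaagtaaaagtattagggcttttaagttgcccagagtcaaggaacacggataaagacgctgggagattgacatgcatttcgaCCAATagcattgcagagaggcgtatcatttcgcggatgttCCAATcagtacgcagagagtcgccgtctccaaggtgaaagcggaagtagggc
BLM: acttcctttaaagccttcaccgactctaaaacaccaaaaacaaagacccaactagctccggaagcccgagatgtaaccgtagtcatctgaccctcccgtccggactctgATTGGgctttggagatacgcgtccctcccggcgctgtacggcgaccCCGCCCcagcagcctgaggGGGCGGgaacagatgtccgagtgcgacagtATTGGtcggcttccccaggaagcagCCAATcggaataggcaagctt
RAD51AP1: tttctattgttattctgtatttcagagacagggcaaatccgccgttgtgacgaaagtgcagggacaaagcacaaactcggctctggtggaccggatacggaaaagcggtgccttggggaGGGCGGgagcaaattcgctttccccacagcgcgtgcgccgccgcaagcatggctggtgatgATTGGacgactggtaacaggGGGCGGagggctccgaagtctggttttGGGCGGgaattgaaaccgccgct
FANCL: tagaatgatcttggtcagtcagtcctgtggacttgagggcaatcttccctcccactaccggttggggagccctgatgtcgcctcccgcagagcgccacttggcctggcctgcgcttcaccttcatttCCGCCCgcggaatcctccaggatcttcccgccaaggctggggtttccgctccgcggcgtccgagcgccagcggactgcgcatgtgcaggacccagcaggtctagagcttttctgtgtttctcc
TP53BP1: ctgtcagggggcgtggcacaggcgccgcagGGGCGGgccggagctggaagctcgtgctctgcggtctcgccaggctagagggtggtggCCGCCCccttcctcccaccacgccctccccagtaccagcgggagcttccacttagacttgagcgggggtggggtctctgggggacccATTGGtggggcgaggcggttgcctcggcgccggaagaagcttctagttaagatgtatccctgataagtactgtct
MGMT: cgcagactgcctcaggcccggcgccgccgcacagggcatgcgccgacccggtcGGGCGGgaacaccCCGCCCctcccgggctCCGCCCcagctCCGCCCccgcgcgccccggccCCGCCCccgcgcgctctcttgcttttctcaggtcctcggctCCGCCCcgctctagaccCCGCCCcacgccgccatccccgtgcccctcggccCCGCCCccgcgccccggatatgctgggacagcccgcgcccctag
ERCC1: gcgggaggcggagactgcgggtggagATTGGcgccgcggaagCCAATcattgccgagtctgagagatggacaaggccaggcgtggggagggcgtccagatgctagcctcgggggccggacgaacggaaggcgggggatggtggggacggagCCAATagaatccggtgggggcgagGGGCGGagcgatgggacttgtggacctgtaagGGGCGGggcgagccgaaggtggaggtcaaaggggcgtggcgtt

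In these windows UNG holds 2 GC boxes and no CCAAT, FANCF holds 2 CCAAT boxes at 92 and 52 bases before the start, and BLM holds 3 CCAAT and 2 GC boxes. MGMT, with 80.4% G and C, holds 8 GC boxes and no CCAAT, and FANCL holds a single GC box. Promoters were found for 36 of the 41 repair genes and for 15384 of the genes on the array. CCAAT stood in 20 of 36 (55.6%) against 33.7% of all array genes, the GC box in 28 (77.8%) against 55.3%, and the E2F letters in 4 (11.1%) against 7.31%. The TATA box (TATAAA) was in 0 of 36, against 8.57%, and TTTGAA, the cell cycle homology region of mitotic promoters, in 3 (8.33%) against 10.8%. By direction of change, CCAAT was in 12 of 22 genes called higher, 2 of 4 called lower and 6 of 10 not called. GC boxes stood in 18, 4 and 6 of them, and the E2F letters in 3, 0 and 1. ETS letters (CCGGAAG) were in 7 of 36 promoters (19.4% against 11.9%), CRE letters (TGACGTCA) in 2 (5.56% against 2.35%) and the NRF1 motif in 0 (against 1.44%). These are matches of letters in a short window and not measured binding sites.

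**Figure D2:**
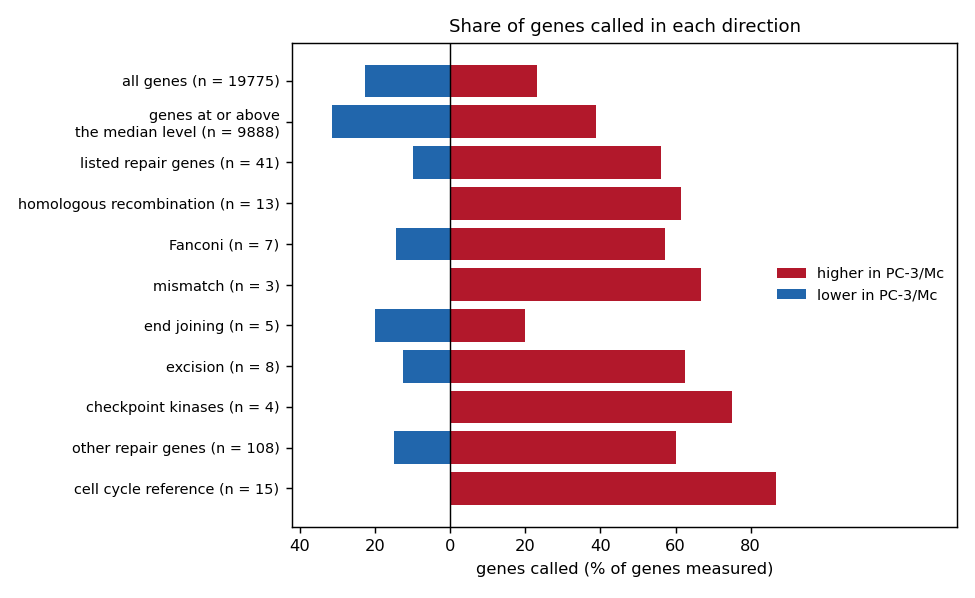
Percent of the measured genes called higher (red, right) or lower (blue, left) in PC-3/Mc for all genes, for genes at or above the median level, for the listed repair genes and their pathways, for other repair genes and for a cell cycle list. The listed repair genes reach 56.1% higher and 9.76% lower, the end joining genes 20% each way.

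In homologous recombination, 8 of 13 measured genes were called higher, 0 lower and 5 neither way, with a median difference of 0.48. Over all genes 23.2% were called higher and 22.7% lower, and at or above the median level 38.9% and 31.3%. No pathway was tested as a set, and each holds few genes. All 13 differences were above 0 (0.05 to 1.34), although those of BARD1, RAD54B and NBN changed sign under other processing. BRCA1, the ubiquitin ligase that promotes end resection, read 7.29, 7.32 and 7.48 against 6.54, 6.58 and 6.59 (0.80 ± 0.08, adjusted p = 1.2e-05). PALB2, which bridges BRCA1 and BRCA2, read 8.54, 8.42 and 8.46 against 7.51, 7.40 and 7.45, a 2.02-fold difference (adjusted p = 1.2e-06). RAD51C, XRCC2 and XRCC3, which promote strand exchange, were all called higher. RAD51C differed by 0.78 ± 0.07, XRCC3 by 0.70 ± 0.12 and XRCC2 by 0.48 ± 0.12. XRCC2 was dim in both lines (5.90 ± 0.17 and 5.41 ± 0.21), and XRCC3 was dim in PC-3/S (5.30 ± 0.12). The motor protein gene RAD54L, whose product acts during strand invasion, was higher by 0.33 ± 0.08 (adjusted p = 0.00456). Its relative RAD54B was at 8.36 ± 0.12 and 8.31 ± 0.04, with overlapping arrays and no call (adjusted p = 0.676).

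The MRE11-RAD50-NBN complex, which holds broken ends and starts resection, gave no call for any of its 3 genes. MRE11 was at 7.79 ± 0.14 against 7.67 ± 0.11 (adjusted p = 0.328), and NBN at 9.92 ± 0.08 and 9.77 ± 0.12 (adjusted p = 0.229). RAD50 read 7.22, 7.12 and 7.09 against 6.98, 6.85 and 7.0, without overlap but short of the threshold (0.20 ± 0.08, adjusted p = 0.0689). RAD50 passed after the arrays were centred on their medians (adjusted p = 0.0471) and after dim genes were left out (adjusted p = 0.0346). BARD1, the RING partner of BRCA1, read 8.99, 8.71 and 8.71 against 8.80, 8.79 and 8.59 and was not called (0.08 ± 0.10, adjusted p = 0.58).

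Of the 7 Fanconi genes measured, 4 were called higher, 1 lower and 2 neither way, with a median of 0.56. The shares over all genes were 23.2% higher and 22.7% lower. Beside FANCF, the core complex genes FANCE (7.66, 7.59 and 7.44 against 6.65, 6.52 and 6.61) and FANCG (8.11, 7.96 and 7.86 against 7.33, 7.45 and 7.41) were higher, by 0.97 ± 0.09 and 0.58 ± 0.09. FANCI, a subunit of the clamp that the core complex ubiquitinates, was higher by 0.56 ± 0.10 (adjusted p = 5.2e-04). FANCC, which binds FANCE, read 6.33, 6.43 and 6.37 against 6.39, 6.52 and 6.32 (-0.03 ± 0.08, adjusted p = 0.787). The helicase gene BRIP1, also known as FANCJ, read 8.48, 8.55 and 8.29 against 8.59, 8.60 and 8.63, with no call (-0.17 ± 0.09, adjusted p = 0.147) unless arrays were quantile-normalized (-0.27, adjusted p = 0.0132). The listed core complex genes were thus split, with FANCE, FANCF and FANCG called higher, FANCL called lower and FANCC not called. The lower side of this split rests on FANCL, which has 1 probe set. Of the 11 other Fanconi genes described below, 8 were called higher, FAAP100 (0.86) among them, and 1 lower.

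Of 3 mismatch repair genes, 2 were called higher and none lower, with a median of 0.59. So few genes can hardly be set against the 23.2% called higher and 22.7% called lower over all genes. MSH6, whose product recognises base mismatches, was tight on the arrays at 10.70, 10.64 and 10.62 against 10.07, 10.05 and 10.06 (0.59 ± 0.07, adjusted p = 4.9e-05). MSH3, whose product recognises larger loops, was at 7.41 ± 0.16 and 7.33 ± 0.06 (adjusted p = 0.526). EXO1, the exonuclease that removes the mismatched strand and also resects breaks, read 9.37, 9.25 and 8.95 against 8.39, 8.35 and 8.48 (0.79 ± 0.11, adjusted p = 1.2e-04). EXO1 and MSH6 thus stood apart between the lines, and MSH3 overlapped.

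Apart from direct reversal, which is MGMT alone (-0.59), end joining had the smallest median difference of the listed pathways, 0.18. The 12 other end joining genes described below had a median of 0.39. Of 5, XRCC6 was called higher, TP53BP1 lower and 3 neither way. These shares, 20% each way, were near the 23.2% higher and 22.7% lower over all genes. XRCC6, which encodes the Ku70 subunit that caps broken ends, read 11.98, 11.93 and 11.95 against 11.60, 11.56 and 11.56 (0.38 ± 0.07, adjusted p = 0.00136). XRCC5, which encodes the Ku80 subunit, read 12.09, 12.03 and 12.06 against 11.90, 11.88 and 11.87, with arrays apart but no call (0.18 ± 0.07, adjusted p = 0.0732). PRKDC, the catalytic subunit of DNA-dependent protein kinase, read 9.76, 10.06 and 9.44 against 9.45, 9.37 and 9.51 and overlapped (adjusted p = 0.0833). Without PC-3/Mc replicate 3, PRKDC was called (0.47, adjusted p = 0.00419) and the count of end joining genes called higher rose to 2. Without PC-3/Mc replicate 2 the PRKDC difference fell to 0.16 (adjusted p = 0.292). The count was also 2 with median-centred arrays or without dim genes, and 3 with an intensity trend or with each gene as the mean of its probe sets. LIG4, the ligase of the pathway, was at 6.76 ± 0.22 and 6.87 ± 0.03 (adjusted p = 0.458).

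Of 8 excision repair genes, 5 were called higher, ERCC1 lower and 2 neither way, with a median of 0.70. Among all genes the shares were 23.2% higher and 22.7% lower. In base excision and single-strand break repair, OGG1, the glycosylase for oxidised guanine, read 8.48, 8.25 and 8.22 against 7.35, 7.37 and 7.46 (0.92 ± 0.09, adjusted p = 8.9e-06). LIG3, the ligase that seals the patch, read 7.67, 7.62 and 7.55 against 6.88, 6.82 and 6.85 (0.77 ± 0.08). PARP1, the sensor of strand breaks, was the tightest of them at 10.89, 10.92 and 10.90 against 10.31, 10.26 and 10.23 (0.64 ± 0.07, adjusted p = 2.9e-05). XRCC1, the scaffold that carries LIG3, read 6.57, 6.36 and 6.28 against 6.70, 6.72 and 6.47 and was not called (-0.23 ± 0.10, adjusted p = 0.0999). It was called lower, at -0.31, without PC-3/Mc replicate 1 (adjusted p = 0.0384) or PC-3/S replicate 3 (adjusted p = 0.0391), which raised the count of excision genes called lower to 2. In nucleotide excision, XPC, the damage sensor of global genome repair, read 8.81, 8.60 and 8.66 against 7.78, 7.76 and 7.77 (0.92 ± 0.08, adjusted p = 4.3e-06). DDB2, which recognises ultraviolet photoproducts, was at 7.36 ± 0.08 and 7.15 ± 0.07 and just missed the threshold (0.21 ± 0.08, adjusted p = 0.0526). It passed under 4 of 13 alternatives.

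Among the checkpoint kinases, 3 of 4 were called higher, where 23.2% of all genes were. ATR, which responds to single-stranded DNA at stalled forks, read 9.42, 9.50 and 9.19 against 8.31, 8.37 and 8.53 (0.97 ± 0.10, adjusted p = 1.4e-05). CHEK1, its target kinase, read 8.45, 8.59 and 8.31 against 7.47, 7.40 and 7.66 (0.94 ± 0.10, adjusted p = 1.6e-05). CHEK2, the target of ATM, read 8.26, 8.16 and 8.10 against 7.15, 7.14 and 7.21 (1.01 ± 0.08, adjusted p = 1.5e-06). ATM, the kinase that responds to double-strand breaks, read 7.30, 7.29 and 7.32 against 7.43, 7.17 and 7.33, with a difference of 0.00 ± 0.09 (adjusted p = 0.987). The 3 called kinases were each close to 2-fold apart without overlap, and the ATM arrays of the lines overlapped on this probe set. The dimmer ATM probe sets above the floor differed by -0.10 ± 0.11, with overlap, and by -0.23 ± 0.09, without overlap (6.71 against 6.94). Neither was called in the fit over all probe sets (adjusted p = 0.53 and 0.0773).

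Partner proteins were compared by the difference between the 2 genes within each array, for 8 pairs chosen as known partners with the values in view. The change of BRCA1 exceeded that of BARD1 by 0.72 ± 0.16, that of LIG3 exceeded XRCC1 by 1.00 ± 0.10, and that of FANCE exceeded FANCC by 1.00 ± 0.12. ATM minus CHEK2 changed by -1.01 ± 0.09, and XRCC5 minus XRCC6 by -0.20 ± 0.01. These 5 pairs left no overlap between the lines, and each reached the smallest two-sided p that an exact permutation test of 3 against 3 arrays allows (p = 0.1, adjusted over the 8 pairs 0.16), which cannot pass 0.05. The arrays overlapped for ATR minus CHEK1 (0.02 ± 0.05, exact p = 0.5), MRE11 minus RAD50 (-0.07 ± 0.10, exact p = 0.5) and RAD51C minus XRCC3 (0.08 ± 0.15, exact p = 0.7).

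**Figure D3:**
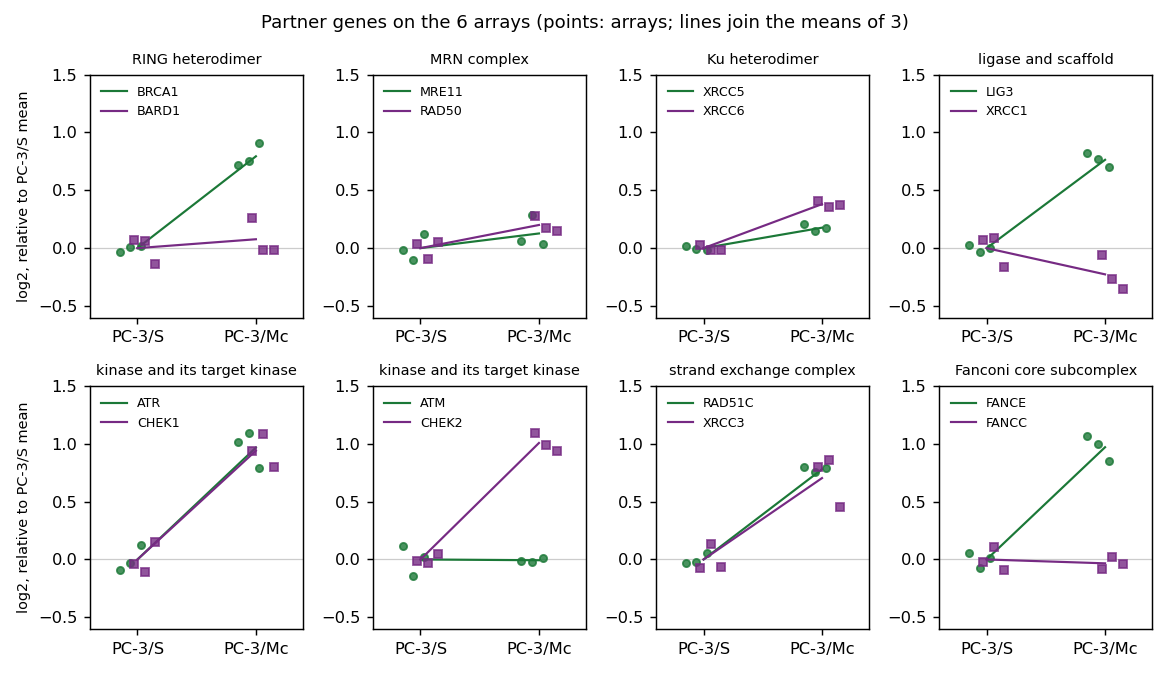
Log2 expression of 8 partner pairs on each array, relative to the PC-3/S mean of each gene (green circles and purple squares, arrays; lines join the means of 3 arrays). The changes of ATR and CHEK1 differ by 0.02 ± 0.05, and those of LIG3 and XRCC1 by 1.00 ± 0.10.

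Several probe sets measure 23 of the 41 genes, and in the fit over all probe sets 37 of the 92 were called higher (40.2%) and 8 lower (8.70%), against 21.3% and 19.5% of all probe sets with a single symbol. Of the 92, 17 averaged at or under the floor of 5.18 in both lines, of which 1 was called. Of the 20 genes with several probe sets above the floor, 13 had all of them on the same side of 0 and 0 had calls in both directions. BRCA1 (0.80 and 0.91), FANCF (1.41 and 1.57), MSH6 (0.59 and 0.71) and ATR (0.97 and 1.02) were called on each probe set above the floor. TP53BP1 was called on its brightest probe sets (-0.64 and -0.92). Its dimmer probe sets above the floor differed by -0.3 and -0.32, with overlap and no call (adjusted p = 0.186 and 0.17). RAD51C was called on both of its own, at 0.78 and 0.26. FANCF read 4.93 in PC-3/S on its dimmer probe set, under the floor. UNG, BLM, RAD51AP1, FANCL and MGMT are among the 18 genes with 1 probe set, so their values could not be compared between probe sets.

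Other genes gave values that depended on the probe set. ERCC1 had 3 probe sets above the floor: the brightest differed by -0.49 ± 0.09, another by -1.94 ± 0.10 (6.07 ± 0.13 against 8.01 ± 0.08, adjusted p = 1.3e-08) and the last by -0.06 ± 0.09 (adjusted p = 0.679). Probe sets whose names end in _x_at or _s_at can match more than 1 transcript. Leaving them out ended the ERCC1 call (-0.06, adjusted p = 0.663), and taking the mean of its probe sets gave -0.83. OGG1 was then left with a probe set under the floor and its sign turned without a call (-0.05, adjusted p = 0.811); its brighter probe sets differed by 0.92 and 0.58. XRCC5 was called on its less bright probe set (0.54 ± 0.08, adjusted p = 1.8e-04) but not on its brightest, so that the lag behind XRCC6 described above rests on the probe set chosen. Other uncalled genes were called on a dimmer probe set in either direction. PRKDC (0.40 ± 0.09), RAD50 (0.38 ± 0.10) and MRE11 (0.27 ± 0.09, under the floor in both lines) were higher there. BARD1 (-0.35 ± 0.11, at 4.86 against 5.21) and LIG4 (-0.33 ± 0.11, at 6.36 against 6.70) were lower. LIG3 was called on 2 of 6 probe sets (both 0.77) and CHEK1 on 2 of 4 (0.94 and 0.63). The uncalled probe sets above the floor differed by -0.15, 0.10 and 0.28 for LIG3, and by -0.34 and 0.20 for CHEK1. The pair differences with LIG3 or CHEK1 thus hold for the brightest probe sets.

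**Figure D4:**
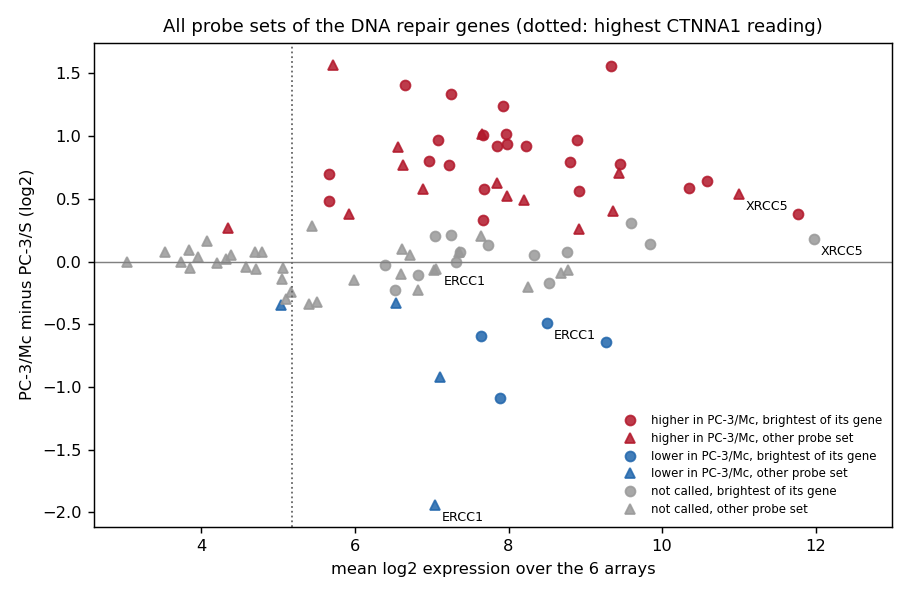
Difference between the lines against mean log2 expression for the 92 probe sets of the repair genes (circles, brightest of its gene; triangles, other probe sets; red, called higher; blue, called lower; grey, not called; the dotted line is the floor of 5.18). Most probe sets left of the dotted line lie near 0, and the 3 of ERCC1 lie at -0.06, -0.49 and -1.94.

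Neighbouring genes that start on the opposite strand within 1000 bases upstream, and so share a promoter region, were found for 14 of the 36 repair genes with a promoter entry, and 10 of these neighbours were measured. Of 7 measured neighbours of genes called higher, 5 were called higher and 2 neither way, with 0 lower, where 23.2% of all genes and 38.9% of those at or above the median level were called higher. PALB2 and DCTN5, whose starts are 156 bases apart, differed by 1.02 and 0.54. XPC and the RNA-processing gene LSM3 differed by 0.92 and 0.51, XRCC3 and ZFYVE21 by 0.70 and 0.64, and RAD51AP1 and FERRY3 by 1.24 and 0.50. DESI1 was higher by 1.09, more than XRCC6. The neighbour of TP53BP1, MAP1A, was lower too (5.32 against 6.39, a difference of -1.07 ± 0.16). BRCA1 and CHEK2 were called higher while NBR2 (-0.11, adjusted p = 0.404) and HSCB (0.25, adjusted p = 0.0957) were not called. ATM was not called and NPAT, its neighbour, was lower (-0.28, adjusted p = 0.029). Neither MRE11 nor its neighbour ANKRD49 (0.20, adjusted p = 0.0719) was called.

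A further 120 genes of the same pathways and of translesion synthesis, 108 of them measured, gave 65 called higher (60.2%), 16 lower (14.8%) and 27 neither way, with a median of 0.41. Over all genes 23.2% were called higher and 22.7% lower, and at or above the median level 38.9% and 31.3%. Near these shares were the mismatch genes called higher (40%) and those called lower in recombination (18.5%), damage signalling (23.1%) and translesion synthesis (33.3%). In recombination 14 of 27 were higher and 5 lower, led by the dissolvasome genes RMI1 (1.81) and RMI2 (1.49), whose products act with BLM, and BRCC3 (1.4); MCM8 (-0.48), RECQL4 (-0.46) and RECQL5 (-0.45) were lower. Among Fanconi genes 8 of 11 were higher, led by the ERCC1 partner ERCC4 (1.38), FAAP100 (0.86) and USP1 (0.72), and MAD2L2 was lower (-0.27). Mismatch genes gave 2 of 5 higher, PMS1 (0.82) and the replication clamp PCNA (0.41), and 0 lower. In end joining 9 of 12 were higher, with SHLD2 (1.24), POLQ (0.92) and PAXX (0.90) ahead, and DCLRE1C (-0.31) lower.

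Of 32 other excision genes, 18 were higher and 4 lower. GTF2H1 (1.15), NEIL2 (1.12) and MBD4 (1.11) led, while ERCC2 (-0.78), CCNH (-0.50) and MNAT1 (-0.47) were lower. Subunits of the transcription and repair factor TFIIH were called both ways. GTF2H1, GTF2H4 (0.74), GTF2H5 (0.42) and GTF2H3 (0.39) were higher, ERCC2, CCNH, MNAT1 and CDK7 (-0.30) lower, and ERCC3 (0.17, adjusted p = 0.105) was not called. Damage signalling gave 10 higher and 3 lower of 13. The ATR activator TOPBP1 (1.29), WEE1 (1.22) and TIMELESS (1.16) were higher, and RAD17 (-0.87), RAD9A (-0.78) and HUS1 (-0.78) were lower. RAD9A and HUS1 encode subunits of a checkpoint clamp that RAD17 helps to load, and the gene of the remaining subunit, RAD1, was higher (0.68 ± 0.07, adjusted p = 1.8e-05). The clamp and TFIIH genes are given on their brightest probe sets alone. Those of RAD17, RAD1, HUS1, MNAT1, CDK7 and GTF2H3 have names ending in _x_at or _s_at, so both splits may depend on the probe set. Without such probe sets, which leaves fewer genes, the other repair genes called lower fell from 16 to 7. Of 6 translesion genes, RAD18 (0.87), POLH (0.48) and REV3L (0.40) were higher and the polymerase genes POLK (-1.0) and POLI (-0.44) lower. The alkyl reversal enzyme ALKBH2 was higher (0.88), opposite to MGMT.

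Many repair genes are transcribed in S and G2 phase, and cell cycle genes moved in the same direction. Of 15 listed, 13 were called higher (86.7%) and 0 lower, with a median of 0.67, among them CCNA2 (1.86), MCM2 (1.62) and MKI67 (0.67). The share called higher was 23.2% over all genes and 38.9% over those at or above the median level. E2F1 (0.11, adjusted p = 0.398) and MCM4 (0.05, adjusted p = 0.679) were not called. In bulk RNA, more cells in a phase and more RNA per cell cannot be told apart, and the part of cell cycle phase in these differences was not tested. The shift varied among the PC-3/Mc arrays: the median of the repair genes over the PC-3/S mean was 0.61, 0.56 and 0.38 on replicates 1, 2 and 3, against 0.01, -0.03 and 0.02 on the PC-3/S arrays. Replicate 3 was the lowest PC-3/Mc array for 26 of the 41 genes. The same count was not made over all genes, and whether the whole array was offset was not tested.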

How the data were processed

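The authors' deposited table holds log2 expression for 54675 probe sets on 6 arrays, with 0 other sample columns. Background correction, software and normalization were not given in the sources used here. Values of 2.59 to 14.45 gave the log2 scale. A shift of most transcripts one way would not be seen. Of 6 common reference genes, 3 were called higher, 1 lower and 2 neither way, where 23.2% of all genes were higher and 22.7% lower. HPRT1 was higher by 1.15, TBP by 0.32 and GAPDH by 0.22. B2M was lower (-0.65), and ACTB (-0.07) and PPIA (0.03) were not called. Arrays were grouped by title. Probe sets were named by the platform annotation, and RefSeq tables of assembly GRCh38.p14 gave symbols and promoters. Each gene was its brightest probe set, with no filter. Lines were compared by lmFit and eBayes of limma 3.58.1 (R 4.3.3), a two-sided test without covariates, over 19775 genes and again over all probe sets. The fit was tested on simulated data with independent noise, in which far fewer genes changed than were called here. Its error rate in the present data was thus not tested. Array number limits the precision (median SE 0.092). The named genes are all members and, of each list of other repair genes, up to 3 called genes per direction with the largest difference. RAD1 and the further TFIIH subunits were added after their values were seen. Members and lists were chosen with earlier results of these data known, so counts are read beside the share over all genes, without a list test. Same-numbered arrays did not deviate together (correlations -0.02, -0.26 and -0.38), so that no block was used. The alternatives were another normalization, probe set choice, filter or variance trend, a replicate block, and each array left out.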

Additional observations from a re-analysis of the deposited data

How the results depend on the processing

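Of the 27 called repair genes, 25 kept call and direction under each of the alternatives that could give a value. The exceptions, ERCC1 and OGG1, are given above. UNG, BRCA1, CHEK2, RAD51C, XRCC2 and XRCC3 have only probe sets with names ending in _x_at or _s_at. Leaving these out gave no value for those genes, so their calls were not tested in that way. The repair genes called numbered 18 to 26 higher and 3 to 5 lower over the 13 alternatives. With the replicate number as a block they were 23 and 4 (probe sets 35 and 7), and no call of a repair gene changed. Of the 14 uncalled genes, 7 were called under some alternative, and 6 changed sign without a call. These were BARD1 (-0.01 quantile-normalized, -0.06 as the mean of probe sets, -0.01 to 0.13 with single arrays left out), RAD54B (-0.05 quantile-normalized, 0.00 to 0.11 with single arrays left out), NBN (-0.03 as the mean), FANCC (0.02 centred, 0.04 as the mean, -0.08 to 0.02 with single arrays left out), LIG4 (-0.20 to 0.01 with single arrays left out) and ATM (0.05 centred, and -0.07 to 0.06 with single arrays left out). The cause was not tested.

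Counts by pathway that moved were the end joining genes higher (2 centred, 2 without dim genes, 3 as the mean of probe sets, 3 with a trend, 1 to 2 with single arrays left out), Fanconi genes lower (2 quantile-normalized) and excision genes lower (1 to 2 with single arrays left out). When _x_at and _s_at probe sets were left out, which leaves fewer genes, excision genes were 3 higher and 0 lower, and other repair genes lower numbered 7. The medians there were 0.31 for all repair genes, 0.33 for recombination, 0.05 for end joining, 0.21 for excision and 0.63 for the kinases. As the mean of probe sets, which includes dim ones, they were 0.33 for all, 0.34 for mismatch, 0.38 for excision and 0.52 for the kinases. Quantile normalization gave 0.46 for Fanconi, 0.52 for mismatch, 0.64 for excision and -0.66 for MGMT, and centring 0.64 for mismatch and 0.75 for excision. With single arrays left out, the median ranged from 0.37 to 0.55 over all repair genes and from 0.36 to 0.55 for recombination. Dim probe sets limit what can be read for XRCC2 and XRCC3.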
